A study of Mus musculus with 18 samples.

Results

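Genes for folding, checking and exporting proteins in the endoplasmic reticulum (ER), together with the sensors of ER stress, were followed in mouse embryonic fibroblasts (MEFs) made to express oncogenic RAS with and without S6 kinases. The group was a fixed list of 36 genes, matched by symbol or older symbol to the 55401 identifiers of the count table, and all 36 were found. RNA-seq covered 18 cultures, 3 in each of 6 groups. In the S6K1 series, wild-type (WT) MEFs carried an empty retroviral vector (EV) or RAS, and S6K1 knockout (KO) MEFs carried RAS. In the S6K1/S6K2 series, WT MEFs again carried EV or RAS, and MEFs lacking both kinases (double knockout, DKO) carried RAS. MEFs are primary cultures from minced embryos, here without head and viscera. RAS was a constitutively active HRAS delivered by a retrovirus and EV an empty retroviral vector, so all 6 groups had been infected. The study's methods name pBABEpuro for EV and MSCV-neo for RAS, whereas its results speak of a parental vector, and whether both shared a backbone was not settled. The S6K1 KO and WT embryos were littermates by the study's methods, whereas the WT controls of the DKO cells came from separate mothers, so genotype and litter cannot be told apart in that series. No KO or DKO culture with EV was analysed here, and the effect of RAS was therefore measured in WT cells only.

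The ER lumen is where secreted and membrane proteins fold. They enter through the Sec61 translocon, are held by the HSP70 chaperone BiP (Hspa5) and its J-domain partners, by the HSP90 chaperone GRP94 (Hsp90b1) and by the sugar-binding calnexin and calreticulin, and acquire disulfide bonds from protein disulfide isomerases recharged by the Ero1 oxidases. Proteins that do not fold are drawn back to the cytosol and degraded (ER-associated degradation, ERAD), and those that do leave in COPII vesicles. When unfolded proteins accumulate, the sensors IRE1 (Ern1), PERK (Eif2ak3) and ATF6 start the unfolded protein response: IRE1 splices Xbp1 mRNA, ATF6 is cut to release a transcription factor, and PERK slows translation and raises ATF4. BiP, Herpud1, Dnajb9 and Sdf2l1 are classical targets of this response. Gene-level counts cannot show Xbp1 splicing, ATF6 cleavage or PERK phosphorylation.

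Many of these genes carry a known sequence in their promoters through which ATF6 and XBP1 act. The windows below show it in BiP as the standard target and in Herpud1 as a gene that fell with RAS. They also show it in the paralogs Calr and Calr4, of which Calr4 rose. Genes that rose with RAS but hold no such sequence, such as Ero1l and Ern1, are not printed. Whether the sequence bears on the response to RAS was not tested. The windows are RefSeq promoter sequences of GRCm38.p6, from 250 bases before to 50 bases after the annotated start, written 5′ to 3′ along the gene. Capitals mark the ER stress element (CCAAT and CCACG 9 bases apart, on either strand), its second form (ATTGG and CCACG 1 base apart) or the core of the unfolded protein response element (TGACGTG).
Hspa5, chr2:34771840-34772139, plus strand: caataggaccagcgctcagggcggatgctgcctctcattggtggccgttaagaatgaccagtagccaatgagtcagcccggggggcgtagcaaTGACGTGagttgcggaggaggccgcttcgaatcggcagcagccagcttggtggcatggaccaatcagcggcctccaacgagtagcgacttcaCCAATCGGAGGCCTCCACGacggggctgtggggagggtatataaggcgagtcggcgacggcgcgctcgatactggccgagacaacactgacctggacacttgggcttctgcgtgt
Herpud1, chr8:94386179-94386478, plus strand: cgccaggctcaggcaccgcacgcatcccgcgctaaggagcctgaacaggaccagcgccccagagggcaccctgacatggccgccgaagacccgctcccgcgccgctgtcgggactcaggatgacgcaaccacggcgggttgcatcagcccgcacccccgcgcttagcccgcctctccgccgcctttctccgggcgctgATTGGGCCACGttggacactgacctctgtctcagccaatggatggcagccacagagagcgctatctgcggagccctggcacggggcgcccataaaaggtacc
Calr, chr8:84846882-84847181, minus strand: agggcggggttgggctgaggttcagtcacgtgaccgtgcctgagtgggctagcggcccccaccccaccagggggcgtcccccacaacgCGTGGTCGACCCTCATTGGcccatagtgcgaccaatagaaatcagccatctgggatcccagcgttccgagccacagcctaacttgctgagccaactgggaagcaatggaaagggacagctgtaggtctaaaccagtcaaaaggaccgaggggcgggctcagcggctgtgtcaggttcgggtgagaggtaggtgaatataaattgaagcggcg
Calr4, chr4:109218163-109218462, plus strand: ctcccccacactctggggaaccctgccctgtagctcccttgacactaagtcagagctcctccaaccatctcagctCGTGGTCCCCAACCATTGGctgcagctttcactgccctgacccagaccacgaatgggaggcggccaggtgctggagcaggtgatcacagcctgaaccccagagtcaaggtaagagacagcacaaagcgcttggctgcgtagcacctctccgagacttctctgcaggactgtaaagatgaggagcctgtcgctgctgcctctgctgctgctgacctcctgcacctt
In these windows the element of Hspa5 began at position -65 from the start and its response element core at -157, the second form in Herpud1 began at -52, and the elements of Calr and Calr4, both on the opposite strand, began at -162 and -175.

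Of the 36 genes, 30 had a promoter window (35 windows, since some genes had several starts). The ER stress element was present in 11 of them (36.7%), namely Hspa5, Hsp90b1, Calr, Calr4, Canx, Pdia6, Ero1lb, Dnajc3, Creld2, Syvn1 and Derl3. Over all 27025 genes with a window of the same length, 37 (0.137%) held it. The second form was in Herpud1 and Dnajb11 (6.67%, against 0.0444% of all genes), the response element core in Hspa5 and Sec24d (6.67%, against 2.22%) and the CCAAT pentamer alone, which both forms of the stress element contain, in 24 of 30 (80%, against 41.1%). These are letter matches in a fixed window. No window was given for Atf6, Derl1, Hspa13, Hyou1, Manf and Sec61a1.

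The libraries held 8319445 to 14402442 counts. Rps6kb1 (S6K1) averaged 68.9 ± 6.73 CPM (counts scaled to a common library size; mean ± SD, n = 3) in WT RAS and 30.6 ± 6.73 in KO RAS, and 80.5 ± 4.44 in WT RAS and 37.4 ± 2.69 in DKO RAS of the other series. Rps6kb2 (S6K2) averaged 25.8 ± 2.67 CPM in WT RAS and 2.83 ± 0.186 in DKO RAS, where the difference was called (adjusted p = 7.44e-05); that of Rps6kb1 was called with DKO (adjusted p = 0.00908) but not with KO (adjusted p = 0.234). Hras rose 1.90-fold and 1.68-fold with RAS. Throughout, a gene was called at a Benjamini-Hochberg adjusted p under 0.05 over all genes tested by edgeR's quasi-likelihood test, and fold changes are given as log2 with their standard error. The fibroblast markers were present in all libraries, but their summed level was 44275 to 54702 CPM in WT EV and 24306 to 36094 in WT RAS of the S6K1 series, and 44742 to 51902 and 26497 to 30066 in the S6K1/S6K2 series. Col1a1, Col1a2, Col3a1 and Fn1 made up most of these sums. The 11 markers did not move together: 4 and 5 were called lower and 0 higher, and the log2 fold changes ran from -1.90 to 0.79 and from -2.23 to 0.74. Of all genes tested, 6.09% and 12.7% were called lower. The 4 epithelial markers summed to 4.67 to 10.1 CPM in WT EV and 109 to 149.9 in WT RAS (S6K1/S6K2 series 0.610 to 3.84 and 79.0 to 120.0), mostly Krt18. Of the endothelial markers tested, 1 was called higher with RAS in each series, Cdh5, from 0.0728 ± 0.0745 to 2.77 ± 1.38 CPM and from 0.0294 ± 0.0510 to 2.79 ± 0.970 CPM, and 1 was called lower in the S6K1/S6K2 series, while Pecam1 stayed under 1 CPM in all 18 libraries. Cdh5 passed the filter on low counts only through RAS libraries, where it was higher. Of the muscle markers tested, 1 was called higher in each series, Acta1, from 45.4 ± 17.6 to 135 ± 14.5 CPM and from 10.5 ± 11.1 to 117 ± 79.6 CPM, while Myod1 was at 0 in all 18. In bulk cultures fewer cells of a type and less RNA per cell cannot be told apart, and the part of these shifts in the results was not tested.

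The 36 genes together took 1.34 to 1.55% of the counts in WT EV and 1.41 to 1.53% in WT RAS of the S6K1 series, and 1.18 to 1.43% and 1.18 to 1.42% in the S6K1/S6K2 series, so the ranges overlapped in both. Per kilobase of exon the most abundant members in WT EV of the S6K1 series were Calr (704 CPM per kb), Pdia3 (595), P4hb (561), Hsp90b1 (498), Hspa5 (397) and Canx (319), and the same 6 led in every group, with 68.6% to 70.1% of the members' summed CPM. Ero1lb (1.46 CPM per kb), Derl3 (0.552) and Calr4 (0.0676) were the lowest.

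With group only, RAS in WT cells changed a few of these genes and none of the most abundant chaperones passed the test. Against EV, 1 member rose and 1 fell in the S6K1 series, where 7.15% of all 14036 genes tested rose and 6.09% fell, and 6 rose and 2 fell in the S6K1/S6K2 series, where 13.5% of 13881 genes rose and 12.7% fell. Calr4 rose and Herpud1 fell in both, and in the second series Ero1l, Ero1lb, Hyou1, Ern1 and Atf6 also rose and Ssr1 fell. The median log2 fold change of the members was 0.028 in the S6K1 series and 0.076 in the S6K1/S6K2 series, beside 0.0018 and -0.024 over all genes tested, and 88.9% and 77.8% of the members lay within 0.5 of 0, beside 71.7% and 59.3% of all genes. The groups did not overlap for 6 members that were higher and 6 that were lower with RAS in the S6K1 series (30.9% of all genes did not overlap in either direction) and for 10 higher and 5 lower in the S6K1/S6K2 series (42.5%). In each series EV and RAS cultures came from the same 3 numbered WT lines. Samples with the same number deviated together, more closely in the S6K1 series. With the line as a block, 6 members rose and 6 fell in the S6K1 series, beside 36.2% of all genes called in either direction. In the S6K1/S6K2 series the block again gave 6 higher and 2 lower. The share of all genes called with the block in that series is not given here. Over all 6 WT lines of both series, 9 of the 36 members were higher with RAS in every line, beside 19.3% of the 13550 genes tested in both series (Hyou1, Calr4, Pdia6, Ero1lb, Dnajb9, Sdf2l1, Ern1, Eif2ak3 and Sec23b) and 6 were lower in every line, beside 19.0% of those genes (P4hb, Dnajc3, Herpud1, Sec61a1, Ssr1 and Sec24d). The smallest difference of Dnajb9 in a line was 0.00028 on the log2 scale.

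**Figure D1:**
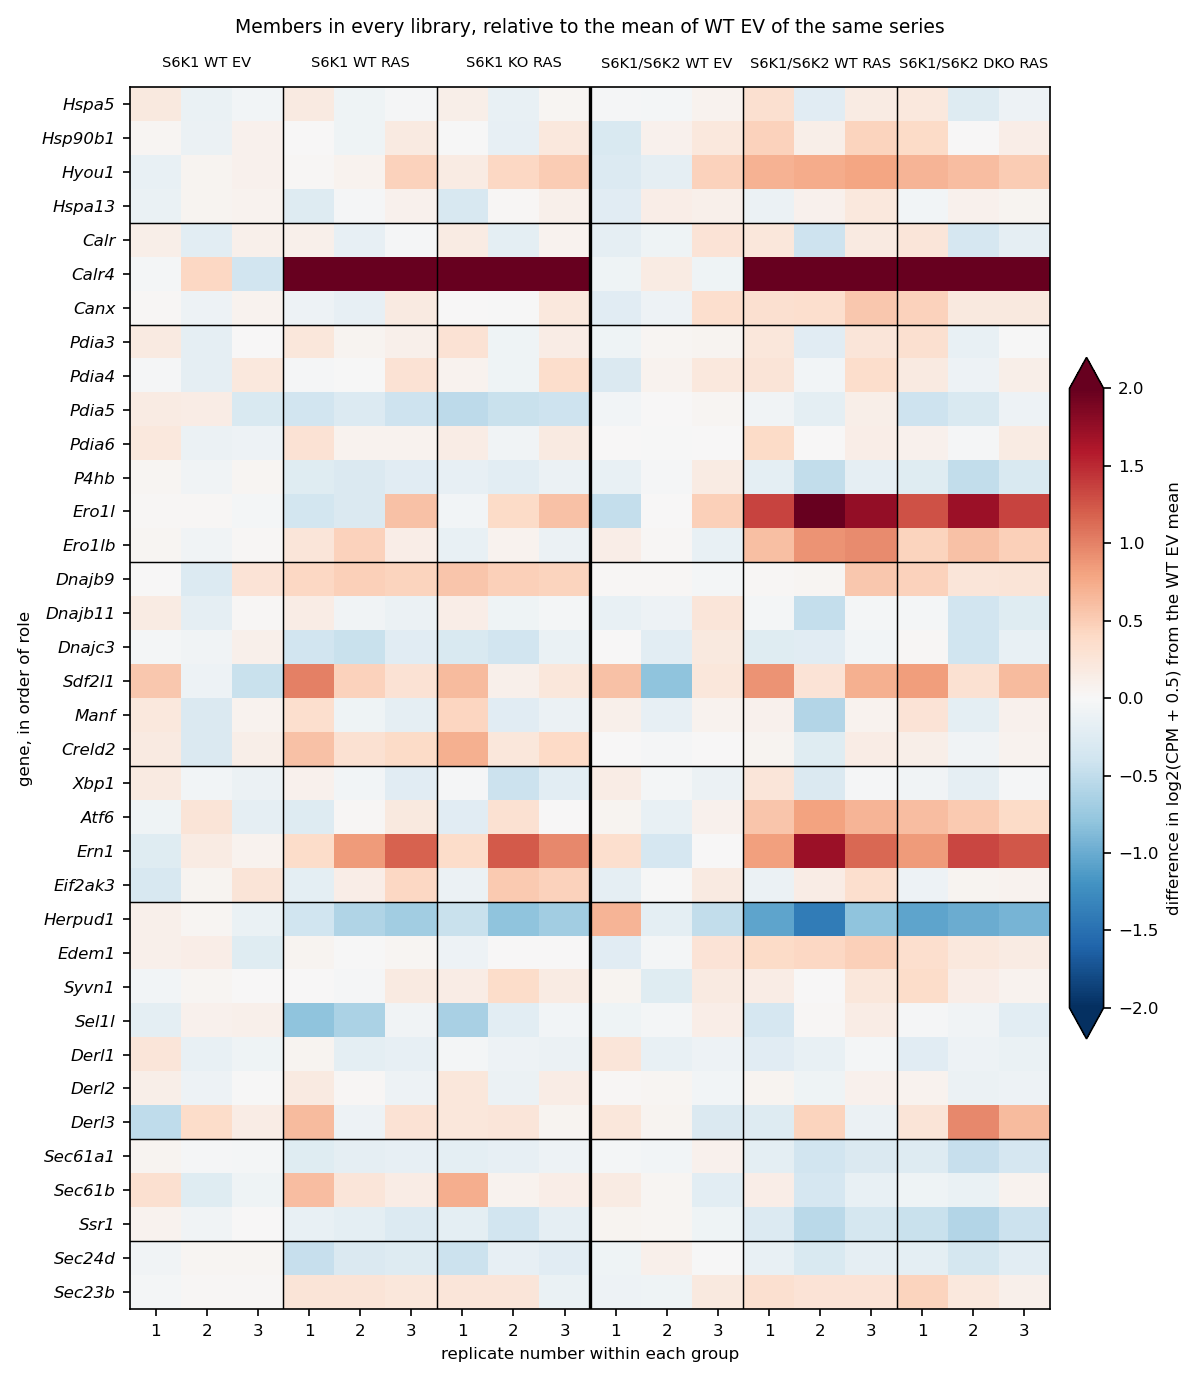
Heat map of the 36 genes (rows, ordered by role) in the 18 libraries (columns, replicates 1 to 3 of each group), as the difference in log2(CPM + 0.5) from the mean of the WT EV libraries of the same series. The colour scale ends at 2 in each direction, which Calr4 exceeds in all 12 RAS libraries; Ero1l, Ern1 and Herpud1 are the other rows with strong colour, and Hspa5, Calr and Derl2 stay pale.

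Among the HSP70 and HSP90 chaperones, BiP (Hspa5), which holds unfolded chains and keeps the stress sensors silent, did not pass the test in either series. Hspa5 stood at 1594, 1261 and 1329 CPM in the 3 WT EV libraries and 1574, 1306 and 1364 in WT RAS of the S6K1 series, and at 1109, 1098 and 1185 and 1404, 969.6 and 1269 in the S6K1/S6K2 series. The groups overlapped in both, and the log2 fold changes were 0.021 ± 0.14 (95% interval -0.30 to 0.34) and 0.10 ± 0.18 (-0.30 to 0.51), so both intervals exclude a 2-fold change. GRP94 (Hsp90b1) had 0.037 ± 0.14 and 0.33 ± 0.19, and Hspa13, a BiP-related ATPase, -0.064 ± 0.14 and 0.055 ± 0.14, none called. Hyou1 (GRP170), the nucleotide exchange factor that makes BiP release its client, was at 140.0, 151 and 233 CPM in WT EV and 276, 287 and 296 in WT RAS of the S6K1/S6K2 series, with every RAS library above every EV library. It rose there by 0.71 ± 0.18 (adjusted p = 0.0194), and had 0.19 ± 0.15 (adjusted p = 0.467) in the S6K1 series, at 216, 247 and 253 CPM in WT EV and 241, 249.6 and 329.8 in WT RAS. The call in the S6K1/S6K2 series was lost without WT EV replicate 2 (adjusted p = 0.078), WT RAS replicate 2 (0.0599) or WT RAS replicate 3 (0.0634).

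The lectin chaperones bind the sugars of unfinished glycoproteins. Calreticulin (Calr) was at 2178, 1750.3 and 2154 CPM in WT EV and 2174, 1803 and 1983 in WT RAS of the S6K1 series, with log2 fold changes of -0.029 ± 0.15 and 0.012 ± 0.23 in the 2 series. Calnexin (Canx), its membrane-bound relative, had -0.023 ± 0.13 and 0.38 ± 0.18, and neither gene was called (Canx was called in the S6K1/S6K2 series without WT EV replicate 3, adjusted p = 0.0299). Calr4, a calreticulin paralog at chr4:109218413-109254979, was the exception. It had 2, 5 and 0 counts in WT EV and 95, 109 and 102 in WT RAS of the S6K1 series, and 0, 1 and 0 and 107, 129 and 114 in the S6K1/S6K2 series, so that it was nearly silent without RAS and present in every RAS library. Over the summed counts of a group, 7 in WT EV and 306 in WT RAS, the level relative to library size was 45.7 times as high with RAS (95% exact counting interval 21.9 to 115), and over 1 and 350 counts in the other series 421 times (75.1 to 16672). Those intervals cover counting error only, and the fitted log2 values of Calr4 depend on the prior count because EV was near 0. The call held in both series (adjusted p = 0.00031 and 4.61e-05) and in all 12 fits that left out 1 library. Calr4 passed the filter on low counts only through RAS libraries, where it was high. All these fits share that filter, so they are no separate support for its rise. With RAS, Calr4 still reached only 8.25 ± 0.198 and 12.5 ± 2.53 CPM. Reads of near-identical stretches could be shared with Calr, which was not called, and a lncRNA gene overlaps Calr4 in the annotation. Its neighbour Eps15 rose by 0.69 ± 0.11 (adjusted p = 0.00207) in the S6K1/S6K2 series and had 0.31 ± 0.12 (adjusted p = 0.129) in the S6K1 series.

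**Figure D2:**
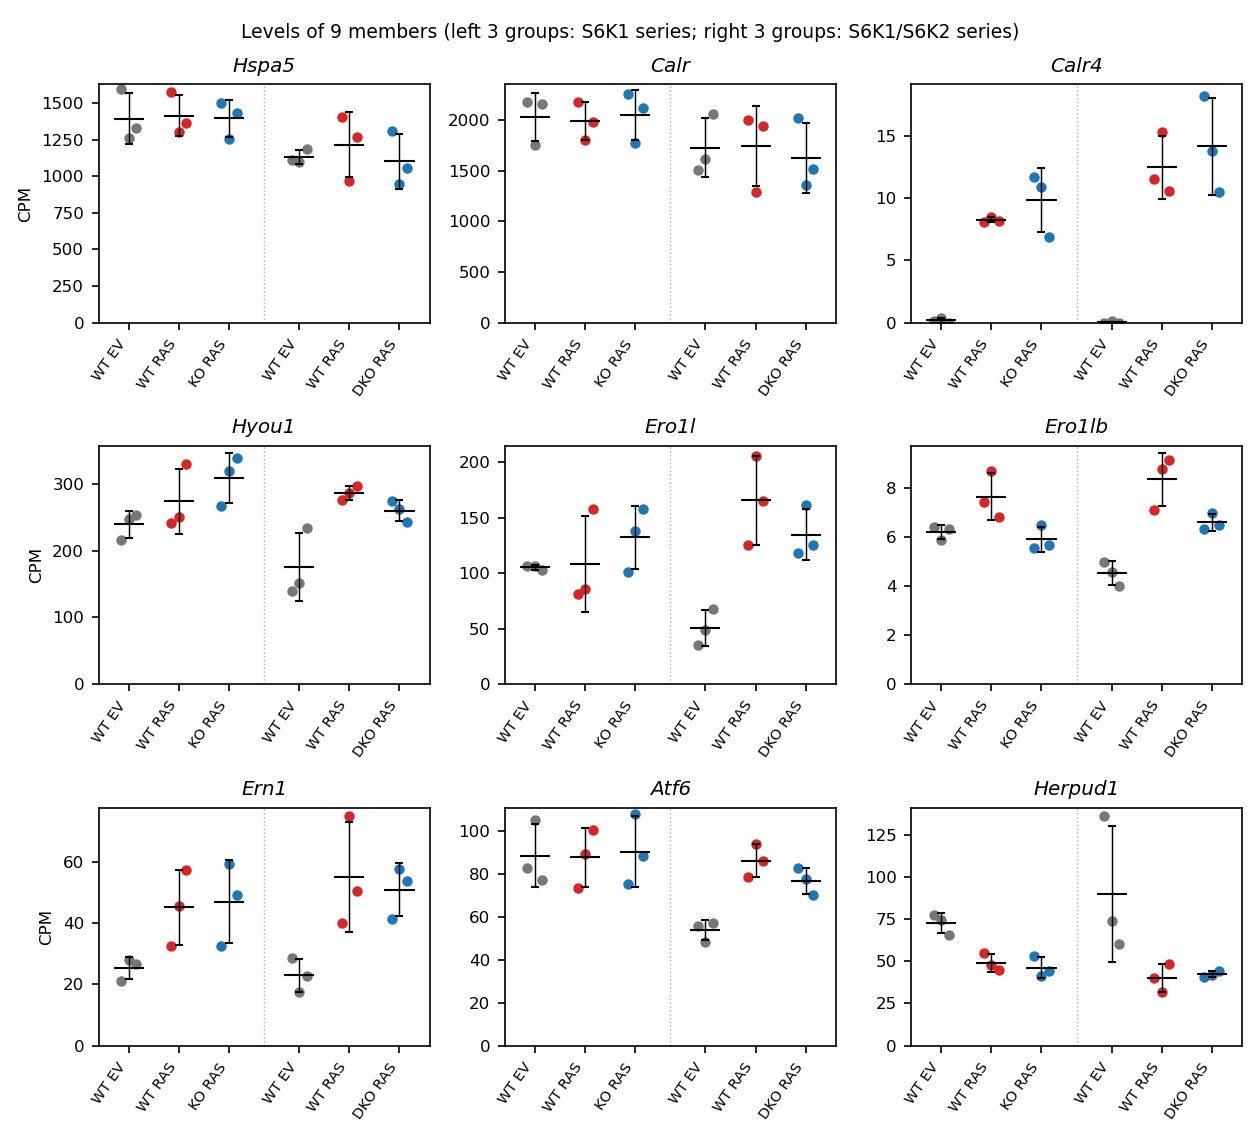
CPM of 9 members in every library (points), with the mean and SD of each group of 3 (bars), the S6K1 series left and the S6K1/S6K2 series right in each panel, and axes starting at 0. Hspa5 and Calr overlap between EV and RAS, and Calr4 lies near 0 in EV and between 8.1 and 15.3 CPM in WT RAS. Between EV and WT RAS, Ero1l, Hyou1 and Atf6 are separated in the S6K1/S6K2 series only. Ero1lb and Ern1 are separated and higher with RAS in both series, and Herpud1 is lower with RAS in both.

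Disulfide bonds are made by the isomerases Pdia3, Pdia4, Pdia5, Pdia6 and P4hb and by the oxidases Ero1l (ERO1α) and Ero1lb (ERO1β), which recharge them. In the S6K1/S6K2 series the largest change after Calr4 was that of Ero1l. The gene, at chr14:45283087-45318572, was at 34.9, 48.7 and 68.0 CPM in WT EV and 126, 206 and 165 in WT RAS of the S6K1/S6K2 series, every RAS library above every EV library. It rose 3.28-fold there (log2 1.71 ± 0.26, adjusted p = 0.00176). The S6K1 series had 107, 107 and 103 CPM in WT EV and 81.3, 85.9 and 158 in WT RAS, with 2 RAS libraries below and 1 above all EV libraries (0.042 ± 0.26, adjusted p = 0.939). Ero1lb was low, at 4.97, 4.59 and 4.01 CPM in WT EV and 7.12, 8.80 and 9.16 in WT RAS of the S6K1/S6K2 series, where it rose by 0.88 ± 0.21 (adjusted p = 0.015). In the S6K1 series it was at 6.39, 5.88 and 6.31 and 7.42, 8.71 and 6.82 CPM, again without overlap, but not called (0.30 ± 0.17, adjusted p = 0.306). The Ero1lb call was lost without WT RAS replicate 2 (adjusted p = 0.0545) or 3 (0.062).

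None of the 5 isomerases was called by edgeR with group only in all libraries. P4hb, the founding isomerase and a subunit of collagen prolyl hydroxylase, was at 1646, 1527 and 1646 CPM in WT EV and 1359.6, 1313 and 1366 in WT RAS of the S6K1 series and at 1319, 1434 and 1632 and 1271, 1039 and 1279.9 in the S6K1/S6K2 series, lower with RAS in both without overlap. Its fold changes were -0.25 ± 0.10 (adjusted p = 0.151, 0.0299 with the block and 0.00741 by DESeq2) and -0.29 ± 0.16 (adjusted p = 0.197). Pdia5 had -0.37 ± 0.14 in the S6K1 series (adjusted p = 0.114, 0.0261 with the block and 0.0242 without WT EV replicate 3) and -0.044 ± 0.12 in the other. Pdia3, Pdia4 and Pdia6 lay between 0.082 and 0.18 in both series, none called.

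The cofactors of BiP and the small folding factors gave no call in either series by edgeR with group only (median log2 fold change 0.22 and -0.060 over 6 genes). With the block, 3 rose and 1 fell in the S6K1 series, beside 36.2% of all genes called there in either direction. Dnajb9 (ERdj4), a J-domain protein that brings BiP to IRE1, was at 48.4, 40.1 and 58.3 CPM in WT EV and 64.4, 67.5 and 66.4 in WT RAS of that series (0.43 ± 0.14, adjusted p = 0.0694, 0.0132 with the block, 0.0274 by DESeq2 and 0.0273 without WT EV replicate 3). Sdf2l1, a partner of the BiP cycle, was at 30.9, 19.9 and 15.6 and 43.2, 29.3 and 26.1 CPM, so that the groups overlapped while each line was higher with RAS (0.57 ± 0.28, adjusted p = 0.242, 0.00361 with the block). Creld2, a secreted stress-responsive folding factor, had 0.42 ± 0.17 (adjusted p = 0.149, 0.00412 with the block). Dnajc3 (p58IPK), a J-domain protein that also restrains PERK, went the other way, at 176, 173 and 195 CPM in WT EV and 138, 132 and 154 in WT RAS (-0.35 ± 0.11, adjusted p = 0.0754, 0.00289 with the block and 0.0218 by DESeq2). In the S6K1/S6K2 series the 4 genes had 0.22 ± 0.15, 0.56 ± 0.33, -0.0031 ± 0.12 and -0.18 ± 0.15 in the same order, none called with or without the block. Dnajb11 (ERdj3) and Manf, a lumenal protein that binds BiP, lay between -0.18 and 0.023 in both series.

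Of the sensors, Ern1 (IRE1), at chr11:106397620-106487796, was higher with RAS in all 6 lines. It stood at 21.3, 28.1 and 26.5 CPM in WT EV and 32.5, 45.8 and 57.3 in WT RAS of the S6K1 series, and at 28.5, 17.7 and 22.7 and 40.1, 75.0 and 50.5 in the S6K1/S6K2 series, without overlap in either. It rose by 1.26 ± 0.25 (adjusted p = 0.00644) in the second and had 0.84 ± 0.26 in the first (adjusted p = 0.0662, 0.000948 with the block, 0.018 by DESeq2, 0.0179 with no filter, 0.0445 with all 18 libraries and 0.0398 without WT RAS replicate 1). Atf6 was at 55.7, 48.3 and 57.0 CPM in WT EV and 78.5, 93.8 and 85.8 in WT RAS of the S6K1/S6K2 series, where it rose by 0.68 ± 0.12 (adjusted p = 0.00361), and at 82.9, 105 and 77.3 and 73.3, 89.3 and 101 CPM in the S6K1 series, where the groups overlapped (-0.012 ± 0.18). The Atf6 and Ern1 calls of the S6K1/S6K2 series held in each of the 6 fits that left out 1 library. PERK (Eif2ak3) had 0.12 ± 0.22 and 0.12 ± 0.15. Xbp1, whose spliced form is the transcription factor of the IRE1 arm, had -0.069 ± 0.14 and -0.015 ± 0.15, with 124, 109 and 102 CPM in WT EV and 132, 91.4 and 109 in WT RAS of the S6K1/S6K2 series, so its total level overlapped between the groups.

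In the ERAD group, Herpud1 (HERP), a membrane protein that organises the degradation complex, was the one gene of the group called in both series. At chr8:94386429-94395371, the gene had 77.4, 74.6 and 65.8 CPM in WT EV and 54.8, 47.7 and 44.5 in WT RAS of the S6K1 series. In the S6K1/S6K2 series the values were 136, 73.9 and 60.4 and 40.4, 31.9 and 48.1 CPM, with WT EV replicate 1 far above the other libraries. It was lower with RAS in all 6 lines, with log2 fold changes of -0.57 ± 0.14 (adjusted p = 0.0244) and -1.17 ± 0.28 (adjusted p = 0.0133). Without WT EV replicate 1 of the S6K1/S6K2 series the fold change was -0.74 (adjusted p = 0.0149), and without WT RAS replicate 2 the call was lost (adjusted p = 0.0599). In the S6K1 series it was lost without WT EV replicate 1 (0.0687), WT EV replicate 2 (0.0854), WT RAS replicate 2 (0.108) or WT RAS replicate 3 (0.0648), and with all 18 libraries in one fit (0.13), whereas with the block the adjusted p was 0.000702. Edem1, which extracts misfolded glycoproteins from the calnexin cycle, had 0.016 ± 0.12 and 0.41 ± 0.14 (adjusted p = 0.0526 in the S6K1/S6K2 series). Edem1 was called there by DESeq2 (adjusted p = 0.022), with DESeq2 size factors in edgeR (0.0485), with all 18 libraries (0.0249), with at least 10 counts in every library (0.0445) and without WT EV replicate 3 (0.0109). Sel1l, the adaptor of the ubiquitin ligase Syvn1 (HRD1), had -0.48 ± 0.22 in the S6K1 series (adjusted p = 0.195, 0.00532 with the block and 0.0394 without WT RAS replicate 3) and -0.046 ± 0.15 in the other. Syvn1 itself had 0.057 ± 0.11 and 0.12 ± 0.14. The derlins, which help form the export channel, were not called. Derl1 and Derl2 lay between -0.15 and 0.033, and Derl3 was too low for a close estimate, at 0.348, 1.04 and 0.823 CPM in WT EV and 1.36, 0.622 and 0.963 in WT RAS of the S6K1 series (95% interval of the log2 fold change -0.62 to 1.45).

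At the entry and exit of the ER, changes were small. Ssr1, a subunit of the translocon-associated protein complex, was at 417, 412 and 377 CPM in WT EV and 332, 276 and 314 in WT RAS of the S6K1/S6K2 series, where it fell by 0.39 on the log2 scale (adjusted p = 0.0416), and it had -0.21 ± 0.10 (adjusted p = 0.248) in the S6K1 series. Its call was lost without WT EV replicate 1 (adjusted p = 0.0824), WT EV replicate 2 (0.116), WT RAS replicate 2 (0.15) or WT RAS replicate 3 (0.108), with the compared 6 libraries alone (0.0848) and with no filter on low counts (0.126). Sec61a1, the channel itself, was lower in all 6 lines without overlap in either series, at -0.20 ± 0.092 and -0.29 ± 0.11 (adjusted p = 0.207 and 0.0897, the latter 0.0491 by DESeq2 and 0.0275 with all 18 libraries). Sec61b, its small subunit, had 0.33 ± 0.23 (adjusted p = 0.397, 0.0166 with the block) and -0.11 ± 0.15. The COPII coat subunits went opposite ways in value. Sec24d, which picks cargo, had -0.33 ± 0.11 (adjusted p = 0.0886, 0.0053 with the block, 0.0307 by DESeq2 and 0.0437 with all 18 libraries) and -0.21 ± 0.11, and Sec23b, which completes the inner coat, had 0.24 ± 0.12 and 0.29 ± 0.13. Sec23b was called in the S6K1/S6K2 series without WT EV replicate 3 (adjusted p = 0.0491).

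**Figure D3:**
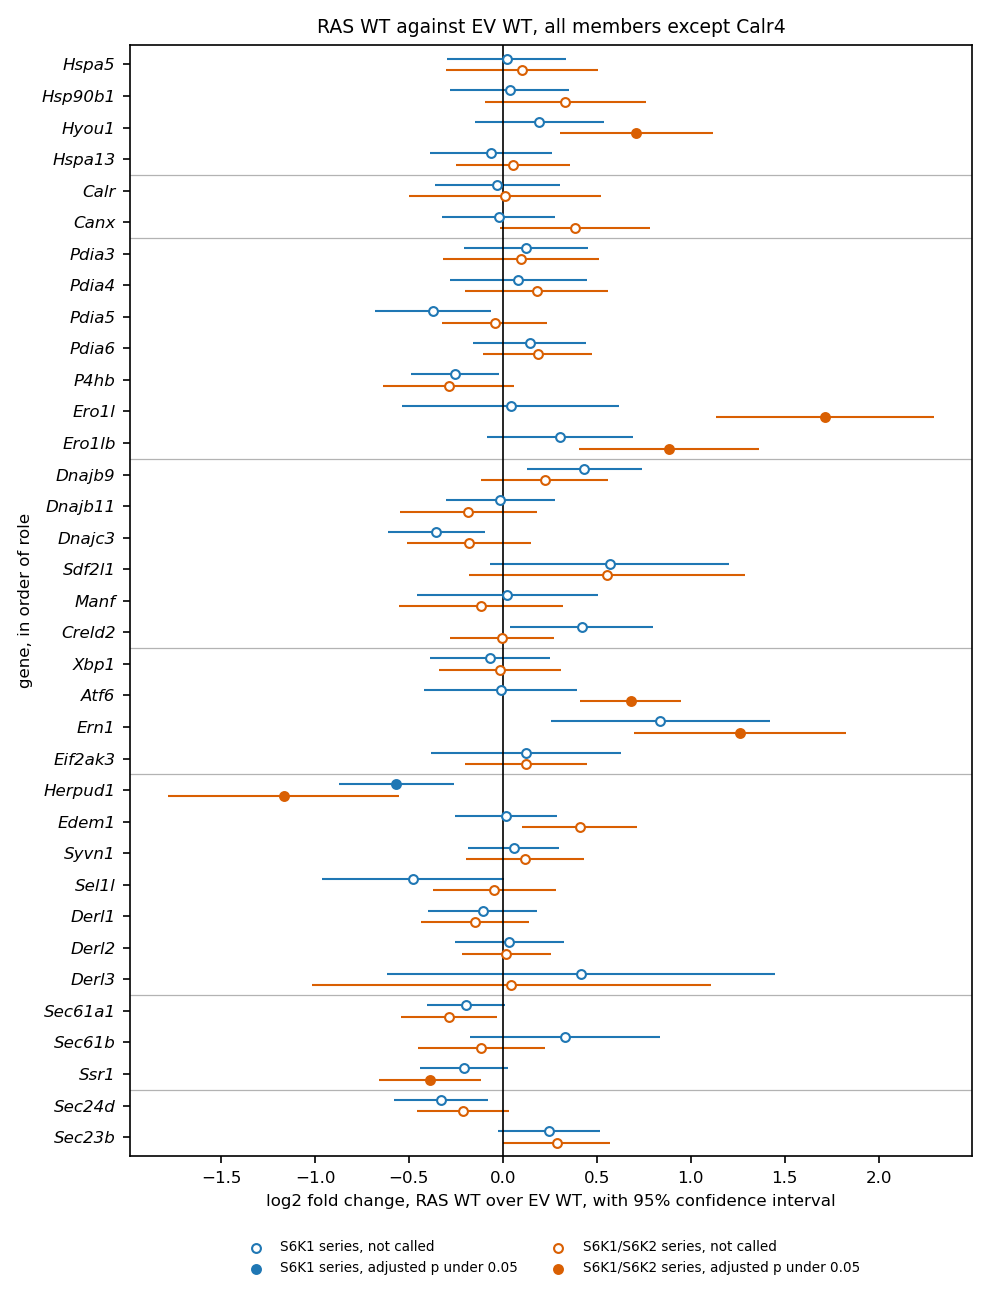
Log2 fold change of WT RAS over WT EV with its 95% confidence interval for 35 members in the S6K1 series (blue) and the S6K1/S6K2 series (orange). Filled points had an adjusted p under 0.05 in edgeR's quasi-likelihood test; Calr4 is left out because its values (5.45 and 8.24) lie off the axis, and most intervals of the chaperones cross 0.

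Whether the RAS effect differed between the series was tested directly, as a contrast of contrasts over all 18 libraries. No member was called, beside 0 of 14483 genes (0%), with 4 members and 1819 genes at an unadjusted p under 0.05. The effect on Ero1l was larger in the S6K1/S6K2 series by 1.67 ± 0.39 (95% interval 0.85 to 2.49, adjusted p = 0.142). It was called with the replicate block (adjusted p = 0.0432), by DESeq2 (0.00843), with no filter on low counts (0.00293) and without S6K1/S6K2 WT EV replicate 3 (0.0209). Without that library Hyou1 was called as well (adjusted p = 0.0489, 0.402 with all). For Atf6 the difference was 0.69 ± 0.22 (adjusted p = 0.275), for Ero1lb 0.57 ± 0.24 (0.37) and for Ern1 0.42 ± 0.38 (0.632), so for these 3 genes, called in the S6K1/S6K2 series alone, a difference from the other series was not shown. In WT EV, Ero1l was at 107, 107 and 103 CPM in the S6K1 series and 34.9, 48.7 and 68.0 in the other. The 2 series came from different mice and cannot be told apart from any other difference between the experiments.

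Loss of S6K1, or of both S6 kinases, under RAS gave no call among the 36 genes. In the S6K1 series the members' lowest adjusted p was 0.769 and none had an unadjusted p under 0.05, beside 1 gene called of 14036 (0.00712%) and 963 genes at an unadjusted p under 0.05. DESeq2 called no member, nor did the block, under which 2 members reached an unadjusted p under 0.05. In the S6K1/S6K2 series the lowest adjusted p was 1.00, again with no member at an unadjusted p under 0.05, beside 3 genes called of 13881 (0.0216%) and 179 at an unadjusted p under 0.05, and DESeq2 called none. The median log2 fold change of the members was 0.023 with KO and -0.062 with DKO, beside 0.031 and -0.00029 over all genes. Of the 36 genes, 22 were positive and 14 negative with KO, and 9 were positive and 27 negative with DKO. The 95% intervals lay within a 2-fold change for 34 members in the S6K1 series (all but Calr4 and Derl3) and for 35 in the S6K1/S6K2 series (all but Derl3). Groups did not overlap for 2 members with KO (8.03% of all genes) and for 3 with DKO (6.09%).

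Of the genes called with RAS, Ero1lb did not overlap with WT RAS in KO or DKO, and Hyou1 did not in DKO. The others, Calr4, Herpud1, Ern1, Ero1l, Atf6 and Ssr1, overlapped with WT RAS when S6 kinase was lost. Calr4 was at 11.7, 10.9 and 6.90 CPM in KO RAS and 18.2, 13.8 and 10.5 in DKO RAS, beside 8.10, 8.48 and 8.18 and 11.5, 15.3 and 10.5 in the WT RAS libraries, with log2 fold changes of 0.25 ± 0.35 (95% interval -0.53 to 1.04) and 0.18 ± 0.30 (-0.49 to 0.85). Herpud1 was at 53.2, 41.1 and 44.4 CPM in KO RAS and 40.6, 42.1 and 44.3 in DKO RAS (-0.084 ± 0.14, -0.39 to 0.22, and 0.076 ± 0.27, -0.54 to 0.69). Ern1 had 0.058 ± 0.26 and -0.11 ± 0.25. Hspa5 was at 1502, 1256 and 1430.5 CPM in KO RAS and 1310.3, 945 and 1054 in DKO RAS, with -0.019 ± 0.14 (-0.34 to 0.30) and -0.14 ± 0.18 (-0.54 to 0.27). The lowest log2 fold change with KO and with DKO was that of the oxidase Ero1lb, and the highest with KO was that of Ero1l. Ero1lb was at 5.54, 6.51 and 5.66 CPM in KO RAS and 6.33, 6.99 and 6.49 in DKO RAS, below every WT RAS library of its series in both cases, with -0.37 ± 0.17 (adjusted p = 0.769, 0.248 with the block) and -0.34 ± 0.21 (adjusted p = 1). Ero1l had 0.29 ± 0.26 with KO and -0.30 ± 0.25 with DKO. P4hb was above every WT RAS library in KO (0.094 ± 0.10), and Hyou1 and Edem1 were below every WT RAS library in DKO (-0.14 ± 0.18 and -0.19 ± 0.14), none called. The largest single value was that of the low gene Derl3 in DKO (0.88 ± 0.45, -0.14 to 1.89).

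**Figure D4:**
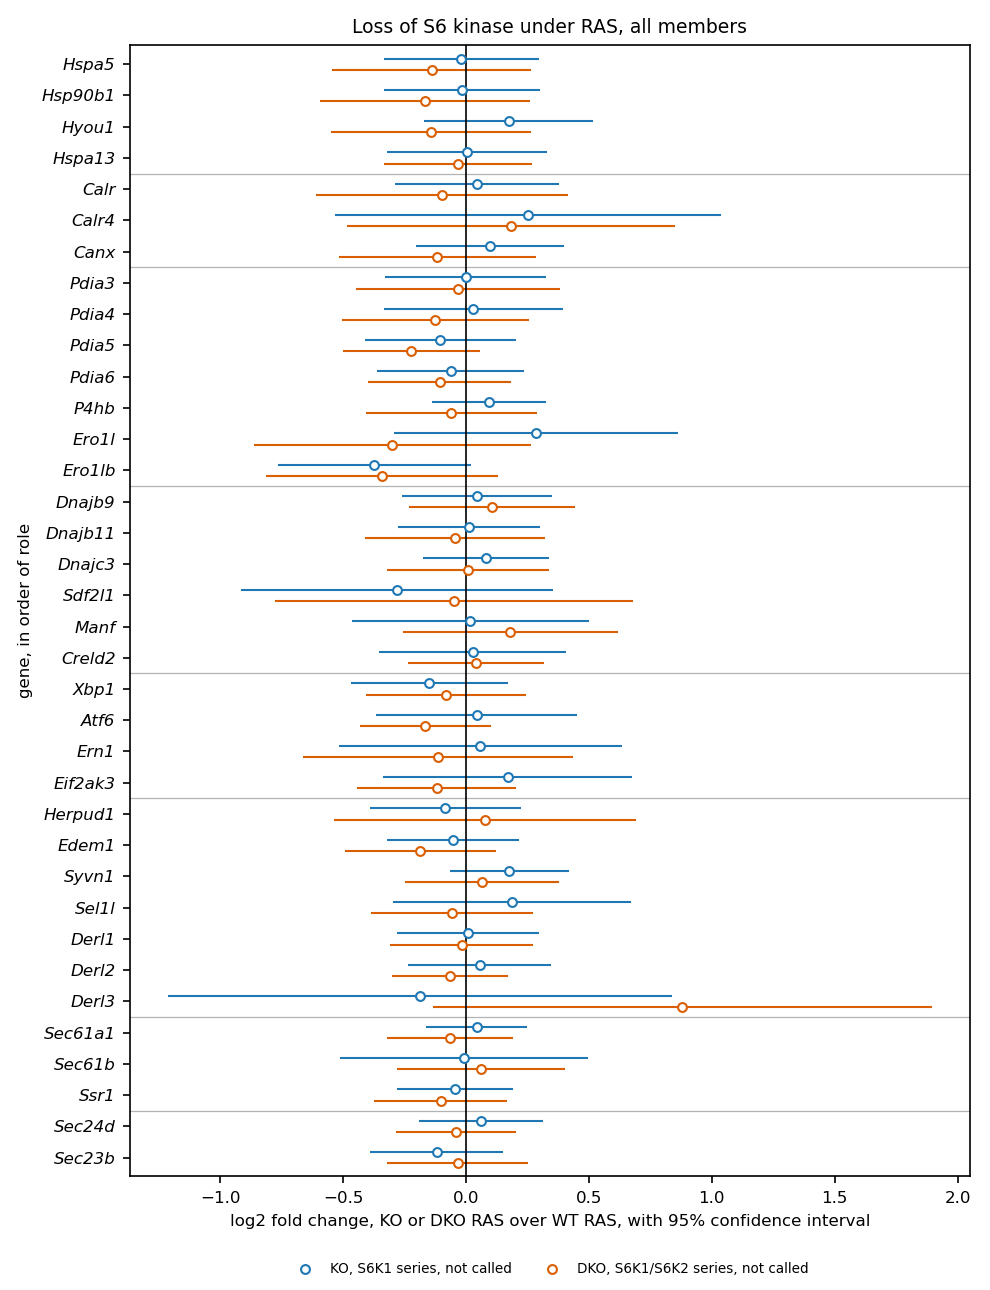
Log2 fold change of KO RAS over WT RAS in the S6K1 series (blue) and of DKO RAS over WT RAS in the S6K1/S6K2 series (orange), with 95% confidence intervals, for all 36 members. All points are open because none had an adjusted p under 0.05 in edgeR's quasi-likelihood test; Calr4 and Derl3 have the widest intervals.

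The difference between the effect of double and of single loss called no member either, beside 1 of 14483 genes (0.0069%), and none had an unadjusted p under 0.05. The summed level of macrophage markers was lower in value with loss of S6 kinase: in the S6K1 series WT RAS libraries summed to 589 to 2873 CPM, beside 203 to 694 for KO RAS, and 158 to 808 and 64.6 to 189.9 in WT RAS and DKO RAS of the other series, and none of the 9 markers was called without the block, whereas all 9 were called lower with KO under it. Under the block, 2 of the 9 were called lower with DKO. The share of all genes called with the block is given here for neither loss comparison. The part of the macrophage markers in the members' values was not tested.

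The wider ER machinery was followed in 7 further lists, of which 133 genes were tested. With RAS, none rose and 9 fell in the S6K1 series, and 9 rose and 19 fell in the S6K1/S6K2 series (6.77% and 21.1% of the 133 in either direction, beside 13.2% and 26.3% of all genes), with median log2 fold changes of -0.022 and -0.093. In the largest list, that of other oxidoreductases and folding factors, 5 of 28 fell and none rose in the S6K1 series, and 8 fell and 1 rose in the S6K1/S6K2 series (median -0.15 and -0.27). Serpinh1 (HSP47), the collagen-specific chaperone, fell in both series (-0.71 ± 0.12 and -1.02 ± 0.21, adjusted p = 0.00531 and 0.0076), from 2676, 2256 and 2394 CPM in WT EV to 1613, 1455 and 1422 in WT RAS of the S6K1 series. The prolyl isomerase Ppic had -0.69 ± 0.14 and -1.45 ± 0.26, and Fkbp14, which acts on procollagen, -0.66 ± 0.17 and -0.77 ± 0.16, both called in each series. The Fkbp14 call of the S6K1 series was lost without any 1 of the 3 WT EV libraries or of WT RAS replicates 1 and 2 (adjusted p = 0.0575 to 0.115), and that of Ppic without WT RAS replicate 2 (adjusted p = 0.0503). Collagens are among the fibroblast markers whose summed level was lower with RAS.

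In the PERK-ATF4 arm, 2 of 14 genes fell and none rose in the S6K1 series, and 3 fell and 2 rose in the S6K1/S6K2 series (all genes 6.09% lower and 7.15% higher, and 12.7% and 13.5%). Those called in both were Atf5, a transcription factor downstream of PERK, with -0.82 ± 0.20 and -1.18 ± 0.21 (adjusted p = 0.0234 and 0.00346), and the pseudokinase Trib3, with -1.01 ± 0.27 and -1.43 ± 0.37 (adjusted p = 0.0364 and 0.0198). Trib3 was at 113, 58.4 and 32.1 CPM in WT EV and 27.9, 25.7 and 21.7 in WT RAS of the S6K1/S6K2 series, so WT EV replicate 1 was the highest for Trib3 as for Herpud1. Without that library the fold change of Trib3 was -0.85 (adjusted p = 0.0349), and the call was lost there without WT RAS replicate 2 or 3 (adjusted p = 0.0655 to 0.0744). The Trib3 call of the S6K1 series was lost without any 1 library other than WT EV replicate 3 (adjusted p = 0.0672 to 0.136), and the Atf5 call without WT EV replicate 1 or 2 or WT RAS replicate 2 or 3 (adjusted p = 0.0616 to 0.0876). Ddit3 (CHOP), chosen because it is a standard ER stress marker and after its values were seen, was at 114, 78.1 and 74.1 and 84.3, 63.3 and 58.6 CPM in the S6K1 series and 203, 84.5 and 76.2 and 59.4, 53.6 and 63.0 in the S6K1/S6K2 series, lower with RAS in each line. It had -0.37 ± 0.24 (adjusted p = 0.381, 0.023 with the block) and fell in the S6K1/S6K2 series, with -1.05 ± 0.32 (adjusted p = 0.0369). Without WT EV replicate 1 that value was -0.45 (adjusted p = 0.0285), and the call was lost without any 1 of the WT RAS libraries (adjusted p = 0.0785 to 0.118). The genes named here are ones that fell, and the 2 that rose in the S6K1/S6K2 series are not named. Over the 14 genes the log2 fold changes ran from -1.01 to 0.68 (median 0.015) in the S6K1 series. In the S6K1/S6K2 series they ran from -1.43 to 1.48 (median -0.23). With the block, 2 rose and 5 fell in the S6K1 series, beside 36.2% of all genes called there in either direction.

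Among the other regulators of the response, 1 of 13 fell in the S6K1 series, and 3 fell and 1 rose in the S6K1/S6K2 series. Creb3l1 (OASIS), an ATF6-like transcription factor of collagen-secreting cells, fell in both (-0.62 ± 0.10 and -1.19 ± 0.21, adjusted p = 0.00351 and 0.00388). Other ERAD genes gave no call of 21 in the S6K1 series and 2 higher and 1 lower in the other. Translocon and signal peptidase genes gave no call of 21 in the S6K1 series and 2 higher and 2 lower in the other. The oligosaccharyltransferase and calnexin cycle gave 1 lower of 18 in the S6K1/S6K2 series and no call in the S6K1 series, and COPII and retrieval genes 1 lower of 18 in the S6K1 series and 1 higher and 1 lower in the S6K1/S6K2 series. With KO or DKO under RAS, none of the 133 genes was called by edgeR. With the block, 42 of the 133 (31.6%) were called in the S6K1 series with RAS, beside 36.2% of all genes.

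Members that carry the ER stress element itself, not its second form, were set beside those that lack it. Of the 11, 1 rose in the S6K1 series (Calr4) and 2 in the S6K1/S6K2 series (Calr4 and Ero1lb) and none fell, with median log2 fold changes of 0.057 and 0.12. Of the 19 members with a window that lacks it, 1 fell (Herpud1) in the S6K1 series, with a median of 0.033. In the S6K1/S6K2 series 2 rose (Ero1l and Ern1) and 2 fell (Herpud1 and Ssr1), with a median of 0.019. Herpud1 and Dnajb11 are among the 19 but hold the second form. Herpud1, which fell, therefore does have a stress element of that form in its window. Of all genes tested, 7.15% rose and 6.09% fell in the S6K1 series, and 13.5% rose and 12.7% fell in the S6K1/S6K2 series. With so few members these counts cannot show a difference tied to the element, and none was tested. Calr and Calr4 hold the same element on the same strand at -162 and -175, and differed in their response to RAS as given above. None of these letter patterns, CCAAT included, is in the windows of Ero1l, Ern1, Xbp1, Pdia5, Sec61b and Ssr1. Of these genes, Ero1l and Ern1 rose and Ssr1 fell in the S6K1/S6K2 series. Xbp1, Pdia5 and Sec61b were not called in either series with group only in all libraries.

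**Figure D5:**
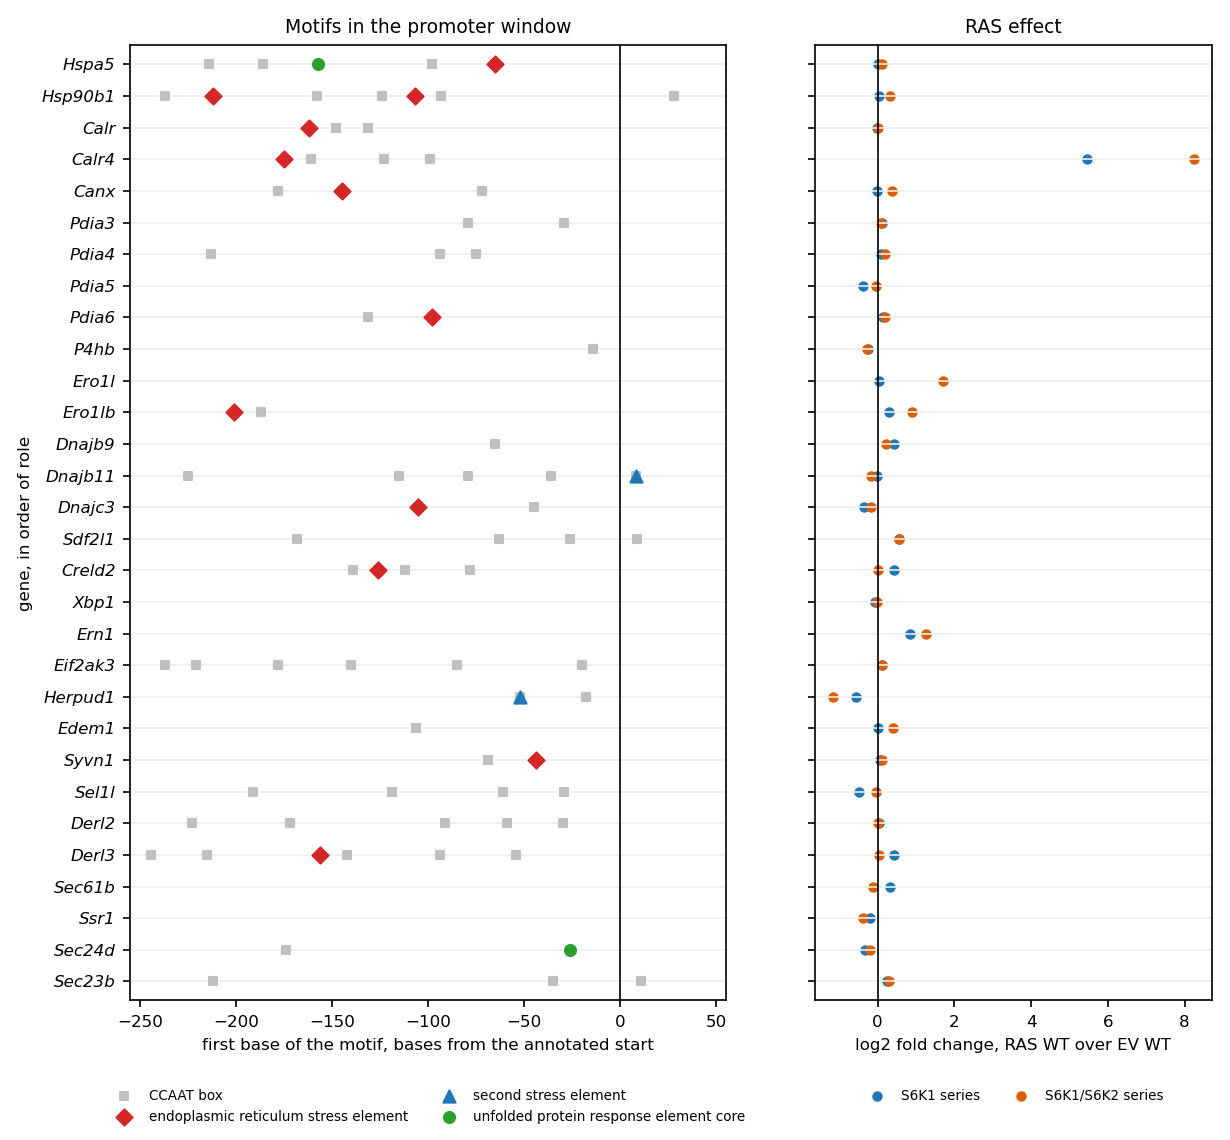
Left, position of the first base of each motif, in bases from the annotated start, in the promoter windows of 30 members (several windows of one gene are drawn on one row); right, log2 fold change of WT RAS over WT EV of the same genes in both series. Stress elements other than the second form (red) lie between -212 and -44, mostly beside RAS values near 0, with Calr4 at 5.45 and 8.24.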

How the data were processed

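Poly(A) RNA was sequenced from 18 MEF cultures. The authors deposited raw read counts per gene, not normalized, for 55401 Ensembl identifiers. The submitters' processing notes name CASAVA, STAR 2.7.1a, DESeq2 1.28.1 and mm10, whereas the study's methods describe stranded single-end libraries, TopHat, HTSeq and mm9; which produced the counts was not settled, so positions (GRCm38.p6, RefSeq) describe the genes and not the counting. Several members overlap other genes (Hspa5 and Rabepk, Pdia3 and Catsper2, Pdia6 and Atp6v1c2, Syvn1 and Mrpl49, Derl2 and Mis12), so reads could have been split between them. Total counts of 8319445 to 14402442 per library set the precision.

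Counts were filtered with filterByExpr (minimum 10) and TMM-scaled, and each series' 9 libraries were fitted by group with edgeR 4.0.16 (quasi-likelihood, R 4.3.3); differences between series used all 18. p-values were adjusted over all genes by Benjamini-Hochberg. Intervals are 95%. CPM are TMM-scaled within a series, and a pseudocount of 0.5 was used for values per line and the heat map. Levels per kilobase used exon unions of GENCODE vM1. The Calr4 ratio used summed counts with an exact binomial interval. Replicate libraries of a group differed beyond sampling noise in all 18 pairs. By the study's legends, replicate MEFs came from different embryos. The fitting script was tested on simulated counts.

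Correlations of the deviations of same-numbered libraries were 0.725, 0.467 and 0.679 for WT EV with WT RAS of the S6K1 series, 0.37, 0.291 and 0.321 for the S6K1/S6K2 series, and 0.725, 0.419 and 0.63 for KO with WT RAS, and EV and RAS libraries of a number share the WT line in the titles, so the replicate block is given beside results it changes. Members and lists were chosen with earlier results of these data known. The text names all 36 members, Rps6kb1, Rps6kb2 and Hras, and from each further list up to 3 genes called in the same direction in both RAS comparisons with the lowest larger adjusted p. Ddit3, Eps15, Cdh5 and Acta1 fall outside this rule and were chosen after their values were seen, as were the other marker genes named. Mia3 of the COPII list had no identifier matched. Alternatives were DESeq2 1.42.0 and its size factors, other filters, other sample sets, the block and leaving out each library.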

Additional observations from a re-analysis of the deposited data

Results flagged for a closer look

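The RAS effect on Ero1l differed between the series in the test of the difference itself with the replicate block, by 1.74 on the log2 scale (adjusted p = 0.0432, edgeR). With group only it was 1.67 ± 0.39 (adjusted p = 0.142). In WT RAS against WT EV, Ero1l was higher in 3 of 3 lines of the S6K1/S6K2 series and in 1 of 3 lines of the S6K1 series.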

How the results depend on the processing

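Under other settings, the number of members called with RAS in the S6K1 series was 2 with group only, 7 with DESeq2, 1 with at least 10 counts in every library, and 12 with the replicate block, also with the block in the compared 6 libraries alone, an alternative chosen after seeing the data; the filter removes Calr4, and the other causes were not tested. The other ER list genes called there were 9, and 14 with DESeq2, 42 with the replicate block and 31 with the block in 6 libraries; in the S6K1/S6K2 series they were 28, and 17 with the compared 6 libraries only. For the difference of the RAS effects, 1 member (Ero1l) was called with DESeq2, with no filter and with the replicate block, and 0 with group only. Leaving out 1 library gave 1 to 4 members called with RAS in the S6K1 series and 4 to 11 in the S6K1/S6K2 series, 0 for KO, 0 for DKO, 0 to 2 for the difference of the RAS effects and 0 for that of the loss effects; other ER list genes were 2 to 9, 9 to 39, 0 and 0. The lowest counts with RAS came without WT RAS replicate 2 in both series (for members of the S6K1 series also without WT EV replicate 1 or 2), and the 4 members without WT EV replicate 3 of the S6K1 series. Medians of the members ranged from -0.0054 to 0.091, 0.016 to 0.15, -0.029 to 0.054 and -0.11 to -0.018 in the same order. DKO and WT RAS libraries share only a number (correlations 0.271, 0.472 and -0.0421; replicate 3 did not correlate best with its own number), and the block called 0 members there. With DESeq2 size factors the median of all genes moved by at most 0.0161. No called member changed sign under the alternatives run. Depth limits Derl3 and Calr4 in EV.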
